A study of Mus musculus with 12 samples.

Results

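A set of 9 genes of lipoprotein handling was followed in 3T3-L1 cells, a clonal mouse line of preadipocytes that fills with lipid when given a hormone mixture. The 9 genes are 3 apolipoproteins (Apoe, Apoc1, Apod), 2 cholesterol exporters (Abca1, Abcg1), the plasma phospholipid transfer protein (Pltp) and 3 receptors (Lrp1, Vldlr, Scarb1). They were picked by gene symbol from the 54532 genes of the deposited count table, and all 9 were found there and tested. RNA of 12 libraries taken on day 6 was sequenced, 3 in each of 4 groups. All cells were wild-type 3T3-L1 according to the labels.

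The untreated group is labelled as preadipocytes without treatment. The DMI group received the differentiation mixture, which the labels give as 0.5 mM IBMX (a phosphodiesterase inhibitor), 1 µM dexamethasone (a glucocorticoid) and 10 µg/ml insulin. The other two groups received DMI together with luteolin or with quercetin and are called the luteolin and quercetin groups here. Both compounds are plant flavonoids, and quercetin carries an additional hydroxyl group on the central ring. The labels give neither the doses of the compounds nor how long they were present, and they repeat the text on the mixture for every sample, the untreated ones included. They do not say that the libraries of a group came from separate cultures, so a p-value here reflects only how these libraries spread, which may be technical.

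Lipoproteins are particles of lipid and protein that carry cholesterol and triglyceride between cells. Apolipoprotein E is the ligand by which receptors of the LDL receptor family, Lrp1 and Vldlr among them, take such particles up, and Abca1 and Abcg1 pass cholesterol out of cells to apolipoprotein A-I and to high-density lipoprotein (HDL). Fat cells hold a large part of their free cholesterol around the lipid droplet, and the nuclear receptor LXR, which senses oxysterols, is known to turn on Abca1, Abcg1 and Apoe.

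Library totals ran from 14522182 to 19436796 counts. The labelled cell type was checked against marker genes. The summed level of 5 adipocyte genes (Adipoq, Fabp4, Plin1, Cidec, Pparg) was 24.2 to 37.2 CPM (counts scaled to library size) in untreated libraries, 2383 to 10440 in DMI, 1920 to 5421 in luteolin and 559.9 to 2748 in quercetin libraries. The 4 preadipocyte genes (Dlk1, Thy1, Pdgfra, Pdgfrb) summed to 7889 to 8203 CPM without treatment and to 1939 to 4547 CPM over the 9 induced libraries. Dlk1 made up much of these sums, at 6574 to 6903 CPM untreated and 994.5 to 3321 CPM induced, so their fall mainly reflects that gene. The third library of each induced group stood apart: Fabp4 was at 840 CPM there against 2958 and 3896 in the other DMI libraries, at 794 against 1812 and 2076 with luteolin, and at 205 against 1197 and 1274 with quercetin. The 6 macrophage genes, which would reveal a cell type rich in Apoe and Abca1, summed to at most 3.39 CPM in any library, and Adgre1, a defining macrophage marker, was at 0 in all 12. The summed endothelial genes reached at most 0.560 CPM and the epithelial ones 0.218 CPM.

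DMI moved most of the 9 genes. Apoe, Apoc1, Abca1, Abcg1 and Scarb1 rose, Lrp1 and Pltp fell, and Apod and Vldlr did not pass the test, which was edgeR's quasi-likelihood test with Benjamini-Hochberg adjustment over 14855 genes and a threshold of 0.05. The 7 of 9 that passed compare with 27.1% of all genes tested, and by direction 5 rose (14.7% of all genes) and 2 fell (12.4%). In those same 7 genes the CPM ranges of the groups did not overlap, which held for 52.1% of all genes; 5 lay wholly above (22.7%) and 2 wholly below (29.4%). The median log2 fold change of the 9 was 1.84, against -0.04 over all genes. The 9 were chosen with earlier results of these data known, so these shares do not measure how unusual they are. In RNA of whole cultures, fewer cells of a type and less RNA per cell cannot be told apart.

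Luteolin left no member past the threshold against DMI, where 0.0202% of all genes passed. There, 2 members had CPM ranges wholly below DMI, Apoc1 and Vldlr (5.24% of all genes) and none wholly above (6.23%). An unadjusted edgeR p under 0.05 was seen for 2, Apoc1 and Abca1, and for 904 of all 14855 genes. DESeq2 called 0 members. Same-numbered luteolin and DMI libraries deviated together, and with the number as a block 0 members and 25 genes passed over all 12 libraries. With the block in only the 6 libraries of the pair, 3 members (Apoe, Apoc1, Abca1) and 929 genes passed. With quercetin, 2 of 9 members fell against DMI, Abca1 and Apoc1, where 0.848% of all genes fell, 0.162% rose and 1.01% passed in either direction. The ranges of Apoe, Apoc1 and Abca1 lay wholly below DMI (7.35% of all genes) and no member lay wholly above (6.68%). With quercetin, 5 members had an unadjusted edgeR p under 0.05, as did 3159 of all 14855 genes. The median log2 fold change of the members was -0.50 with luteolin and -0.99 with quercetin, against -0.02 and 0.02 over all genes; both comparisons use the same DMI libraries.

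**Figure D1:**
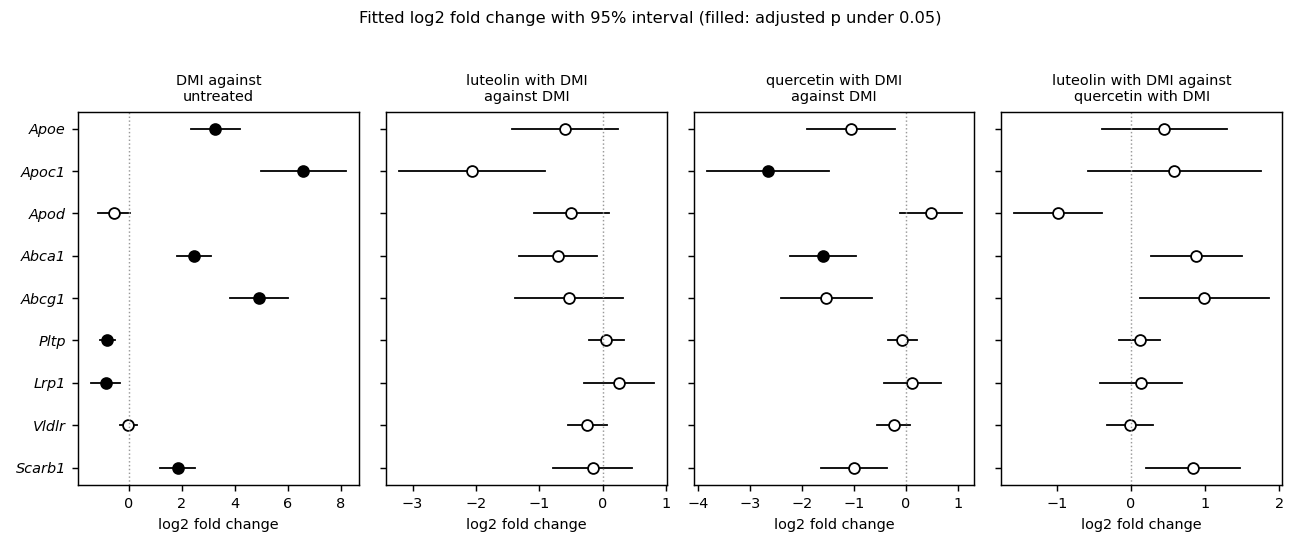
Fitted log2 fold change (horizontal axis) of the 9 genes in the 4 comparisons, with the 95% interval of each as a line; filled points passed an adjusted p of 0.05 and open points did not. Apoc1 lies at 6.59 with DMI, and Abca1 and Apoc1 are the filled points in the quercetin panel.

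Apoe (chr7:19696109-19699188, minus strand) encodes the main receptor ligand on remnant particles. Positions of genes are those of the count table, and for every one of these protein-coding genes but Abcg1 they match GENCODE M21 (GRCm38). It had 6.34, 7.04 and 5.92 CPM in untreated libraries 1 to 3 and 60.1, 85.2 and 41.1 CPM in DMI libraries 1 to 3. With luteolin the values were 39.4, 45.4 and 38.7 CPM, and with quercetin 39.2, 40.7 and 10.2 CPM. Every induced library was above every untreated one, and the third quercetin library was the lowest of the induced. Mean Apoe rose 9.66-fold with DMI, from 6.43 ± 0.564 to 62.1 ± 22.2 CPM (SD, n = 3), a log2 fold change of 3.27 with a standard error (SE) of 0.43 (edgeR adjusted p = 0.000419). The luteolin range overlapped that of DMI, with a difference of -0.59 on the log2 scale and a 95% interval from -1.43 to 0.25 (edgeR adjusted p = 0.936, and 0.71 and 0.0402 with the replicate block over 12 and over 6 libraries). The quercetin libraries all lay below the DMI ones, although quercetin 1 and 2 came close to the third DMI library, and the difference of -1.04 (interval -1.89 to -0.20) missed the threshold (edgeR adjusted p = 0.157). It passed without DMI library 3 (-1.27, adjusted p = 0.0456) and without the third induced libraries (-0.83, 0.000344), while without quercetin library 3 it was -0.62 (0.157). With the replicate number as a block, edgeR gave it an adjusted p of 0.0368 over all 12 libraries and 0.0362 over the 6 of that pair. It passed in 5 of the 22 alternative fits.

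The 250 bases before the start of Apoe are shown because this gene and Abca1 both rose with DMI while Apoe has none of the searched motifs in that window. Sequences are RefSeq's for GRCm38.p6, from which 6 of the 9 genes could be matched. They read 5′ to 3′ on the gene's own strand, which is the minus strand for those printed here, and capitals mark motif matches on either strand.
Apoe, chr7:19699189-19699438: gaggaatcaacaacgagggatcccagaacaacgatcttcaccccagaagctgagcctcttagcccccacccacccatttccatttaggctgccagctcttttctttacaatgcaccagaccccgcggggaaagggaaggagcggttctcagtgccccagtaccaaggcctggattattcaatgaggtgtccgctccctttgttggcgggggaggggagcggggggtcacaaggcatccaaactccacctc
The motifs were the nuclear receptor half-site AGGTCA, its direct repeat with a spacer of 4 bases as LXR binds it (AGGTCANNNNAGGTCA) and of 1 base as PPAR binds it (AGGTCANAGGTCA), the E-box CACGTG, the GC box GGGCGG and the TATA box TATAAA. Each repeat contains the half-site, so their matches overlap. Of 32851 windows of this length, 14.0% held AGGTCA, 0.0152% the repeat spaced by 4, 0.0335% the repeat spaced by 1, 6.02% CACGTG, 32.7% GGGCGG and 12.4% TATAAA. No window of the 6 matched genes held AGGTCA or either repeat, which says only that these exact letters are not in these windows. Sites that differ from the letters in any base were not searched and stay in lower case. The printed windows, that of Abca1 included, therefore do not show that a site for LXR or PPAR is absent. A further annotated start of Apoe has TATAAA in its window.

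Apoc1 (chr7:19689481-19692660, minus strand) lies on the same strand, 3448 bases beyond the end of Apoe, and encodes a small apolipoprotein that hinders lipoprotein uptake by receptors and inhibits lipases. It had 0.187, 0.179 and 0.665 CPM untreated and 30.3, 55.0 and 16.4 CPM with DMI. The luteolin libraries held 6.05, 11.5 and 6.72 CPM, and with quercetin 8.08, 6.47 and 1.53 CPM. The DMI libraries were above all others, the luteolin and quercetin ranges overlapped each other, and all induced libraries were above the untreated ones. Mean Apoc1 rose 98.8-fold with DMI, from 0.343 ± 0.278 to 33.9 ± 19.5 CPM (SD, n = 3; log2 6.59, SE 0.75, edgeR adjusted p = 0.000193). The untreated libraries held only 3, 3 and 11 counts of Apoc1, so the size of this rise is uncertain. Its log2 value was 6.30, 6.28 and 7.505 without untreated library 1, 2 and 3 in turn.

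With quercetin, mean Apoc1 was 5.36 ± 3.41 CPM (SD, n = 3), 6.33-fold below DMI, a log2 difference of -2.65 (SE 0.55, interval -3.83 to -1.47, edgeR adjusted p = 0.0484). With luteolin it was 8.09 ± 2.97 CPM, 4.19-fold below DMI. That difference of -2.06 (interval -3.22 to -0.91) had an unadjusted edgeR p of 0.00201 and an adjusted p of 0.454. The quercetin call was lost when any one of untreated 1, 2 or 3, DMI 1 or 2, luteolin 1 or 2, or quercetin 2 or 3 was left out, with adjusted p from 0.0683 to 0.233. It was also lost with library totals (0.0527), a 1 CPM filter (0.0514), limma-voom (0.077) and the 6 libraries of the pair (0.208). DESeq2 kept it (adjusted p = 0.00566), as did edgeR with the replicate number as a block over 12 (0.00455) and over 6 libraries (0.00181). The call held in 9 of the 22 alternative fits. With the third libraries of DMI, luteolin and quercetin left out, edgeR's adjusted p for Apoc1 was 2.28e-05 with quercetin and 0.000396 with luteolin. For luteolin, a fit with the replicate number as a block gave Apoc1 an adjusted p of 0.109 over all 12 libraries and of 0.000514 over the 6 of that pair. The authors' deposited table lists Apoc1 at -2.05 with an adjusted p of 0.00301 for luteolin and at -2.65 with 4.87e-05 for quercetin, so it calls both.

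The genes around Apoe and Apoc1 on chromosome 7 were taken 4 to each side. Apoc4, an apolipoprotein gene 8001 bases from Apoc1, had no count in any untreated library and 4.97, 6.17 and 1.85 CPM with DMI. Its DMI mean was at least 71.3-fold higher than the level of 3 counts over the untreated group (edgeR adjusted p = 0.00312). With luteolin Apoc4 had 1.05, 1.18 and 0.0666 CPM and with quercetin 0.819, 0.607 and 0 CPM, and neither difference from DMI passed (edgeR adjusted p = 0.679 and 0.0994). Apoc2, the lipase activator in the same cluster, was at 0 in every library. Both Apoc2 and Apoc4 overlap Gm44805 (chr7:19671584-19681423) on the same strand, which was also at 0 throughout. How reads shared by overlapping genes were counted was not examined. A count of 0 for Apoc2 therefore does not show that its RNA was absent, and the levels of Apoc4 may be too low. On the other side Tomm40, a mitochondrial import channel subunit 2124 bases from Apoe, rose from a mean of 42.6 to 106 CPM (log2 1.31, edgeR adjusted p = 0.00933). Clptm1 rose by 0.56 on the log2 scale (edgeR adjusted p = 0.0323), and Bcam passed at a low level, 0.0821 against 0.535 CPM (edgeR adjusted p = 0.039). Nectin2, at 0.27, did not pass (edgeR adjusted p = 0.346).

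**Figure D2:**
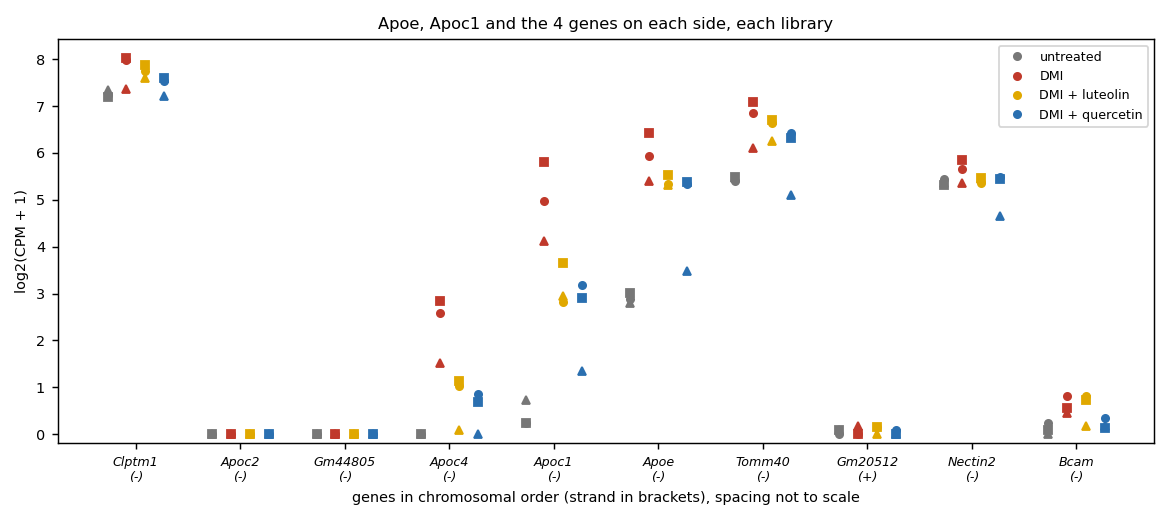
log2(CPM + 1) of Apoe, Apoc1 and 4 genes on each side in chromosomal order, 1 point per library, coloured by group, with circle, square and triangle for libraries 1, 2 and 3. Apoc4 is at 0 in the untreated libraries, Apoc2 and Gm44805 are at 0 throughout, and the third library is the lowest of each induced group for Apoc4.

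Apod (chr16:31296192-31314808, minus strand) encodes a lipocalin that carries arachidonic acid and other small lipids and is not related in structure to the other apolipoproteins. It had 575, 584 and 544 CPM untreated, and 315, 229 and 610 CPM with DMI. The luteolin values were 287, 257 and 274 CPM, and with quercetin 446, 549 and 621 CPM. Libraries 1 and 2 of DMI and all luteolin libraries were low, whereas the third DMI library was above all untreated ones, so the DMI range overlapped each other group. The DMI difference of -0.56 (interval -1.15 to 0.03) did not pass (edgeR adjusted p = 0.147). Leaving out DMI library 3 gave -1.06 with an adjusted p of 0.000497, and leaving out the third induced libraries gave -1.02 with 7.09e-06.

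Between the compounds, Apod had the lowest unadjusted p of the 9 members, and every quercetin library was above every luteolin one, at a mean of 538.5 ± 88.0 against 273 ± 14.9 CPM (SD, n = 3). The log2 difference, luteolin minus quercetin, was -0.98 (interval -1.58 to -0.39), with an unadjusted edgeR p of 0.00355 and an adjusted p of 0.541. The authors' deposited table gives 0.98 for quercetin against luteolin with an adjusted p of 0.00116. Quercetin against DMI gave 0.49 (interval -0.10 to 1.08, edgeR adjusted p = 0.327), and 0.99 without DMI library 3 (edgeR adjusted p = 0.0036). Luteolin against DMI gave -0.50 (interval -1.09 to 0.10, edgeR adjusted p = 0.883), and 0.005 without DMI library 3. The direction of luteolin against DMI thus turned on that library.

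**Figure D3:**
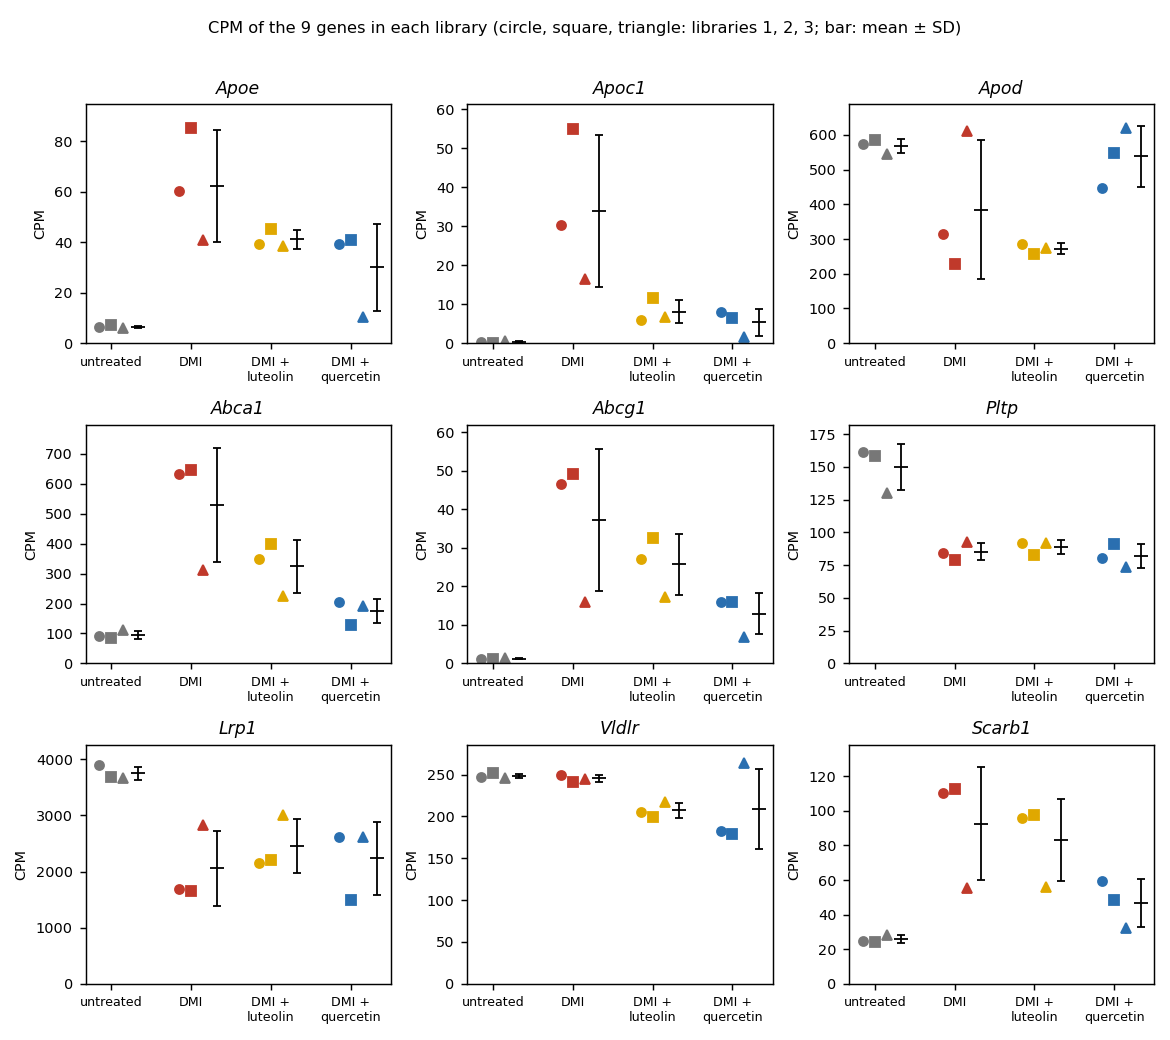
CPM (vertical axis, from 0) of each gene in each library of the 4 groups, with circle, square and triangle for libraries 1, 2 and 3 and the mean ± SD as a bar beside them. The third DMI library is apart from the other 2 for Abca1 (310 against 633 and 645 CPM), Abcg1, Scarb1, Lrp1 and Apod.

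Abca1 (chr4:53030787-53159895, minus strand) encodes the transporter that loads cholesterol and phospholipid onto lipid-poor apolipoprotein A-I. It had 91.7, 85.5 and 110 CPM untreated and 633, 645 and 310 CPM with DMI. With luteolin it had 350, 397 and 224 CPM, and with quercetin 206, 129 and 192 CPM. The means ran in the order DMI, luteolin, quercetin, untreated. Of the neighbours in that order only DMI and luteolin overlapped. Mean Abca1 rose 5.53-fold with DMI, from 95.9 ± 12.9 to 530 ± 190.0 CPM (SD, n = 3; log2 2.47, SE 0.30, edgeR adjusted p = 0.000264).

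With quercetin, mean Abca1 was 175.5 ± 40.6 CPM (SD, n = 3), 3.02-fold below DMI (log2 -1.59, SE 0.29, interval -2.22 to -0.97, edgeR adjusted p = 0.042). With luteolin, at 323.5 ± 89.7 CPM, the difference was -0.71 (interval -1.33 to -0.09, edgeR adjusted p = 0.748). The quercetin call was lost without any one of the same libraries as that of Apoc1, with adjusted p from 0.0577 to 0.21. It was also lost in limma-voom (0.077) and in the 6 libraries of the pair (0.19). DESeq2 kept it (adjusted p = 2.5e-05), as did edgeR with the replicate number as a block over 12 (0.0075) and over 6 libraries (0.0173). The authors' deposited table gives -1.58 with an adjusted p of 0.000122. The call held in 11 of the 22 alternative fits. It was kept without DMI 3, luteolin 3 or quercetin 1 (adjusted p from 0.00126 to 0.0394), and without the third induced libraries it was 1.85e-06. Without these libraries luteolin gave -0.75 (edgeR adjusted p = 0.0107). With the replicate number as a block, luteolin against DMI gave an adjusted p of 0.471 over 12 libraries and 0.0021 over the 6 of that pair. In every one of the 22 alternative fits, DMI raised Abca1 (highest adjusted p = 0.0101).

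The upstream window of Abca1 is given because it is the only one of the 6 that held the E-box, and it also held 2 GC boxes and a TATA box.
Abca1, chr4:53159896-53160145: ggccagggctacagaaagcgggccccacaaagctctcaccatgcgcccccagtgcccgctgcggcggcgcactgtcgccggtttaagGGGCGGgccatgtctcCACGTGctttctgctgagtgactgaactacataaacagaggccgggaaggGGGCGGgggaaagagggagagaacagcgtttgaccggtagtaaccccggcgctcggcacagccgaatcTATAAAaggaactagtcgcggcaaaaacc

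Abcg1 (chr17:31057698-31115777, plus strand) encodes the half-transporter that passes cholesterol to HDL. It had 1.18, 1.19 and 1.33 CPM untreated, 46.5, 49.3 and 15.9 CPM with DMI, 27.2, 32.7 and 17.2 CPM with luteolin, and 15.9, 16.0 and 6.75 CPM with quercetin. The third DMI library was as low as quercetin libraries 1 and 2, and the luteolin libraries were all above the quercetin ones. Mean Abcg1 rose 30.1-fold with DMI, from 1.23 ± 0.0824 to 37.2 ± 18.5 CPM (SD, n = 3; log2 4.90, SE 0.51, edgeR adjusted p = 0.000131). Quercetin against DMI gave -1.52 (interval -2.40 to -0.65) and missed the threshold (edgeR adjusted p = 0.0807). DESeq2 gave an adjusted p of 0.00616, leaving out DMI library 3 gave 0.00314 in edgeR, and the authors' deposited table gives -1.52 with an adjusted p of 0.0198. With the replicate number as a block, edgeR gave an adjusted p of 0.00348 over all 12 libraries and 0.00306 over the 6 of that pair. It did not pass in limma-voom (0.125) or in edgeR on the 6 libraries without a block (0.302), and passed in 6 of the 22 alternative fits. Luteolin against DMI gave -0.53 (interval -1.39 to 0.32, edgeR adjusted p = 0.954).

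Pltp (chr2:164839518-164857711, minus strand) encodes the protein that moves phospholipid from triglyceride-rich particles to HDL. It had 161, 158 and 130 CPM untreated and 84.6, 79.1 and 92.7 CPM with DMI. With luteolin it had 91.7, 83.1 and 92.0 CPM, and with quercetin 80.6, 91.5 and 73.3 CPM. All induced libraries were below all untreated ones and the 3 induced groups overlapped. Pltp fell by 0.81 on the log2 scale with DMI (SE 0.13, 1.76-fold lower, edgeR adjusted p = 0.0011). Against DMI, luteolin gave 0.06 (interval -0.22 to 0.33) and quercetin -0.06 (interval -0.34 to 0.21), so a change of more than about 0.34 in either direction lies outside both intervals. The 3′ end of Pltp overlaps 1515 bases of Ctsa on the opposite strand, a lysosomal gene with 6020 to 14011 counts per library that fell by 0.55 with DMI (edgeR adjusted p = 0.0278). Whether the counting used strand is not stated, so reads of the overlap cannot be assigned to either gene.

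Lrp1 (chr10:127538161-127621148, minus strand) encodes a large endocytic receptor for apolipoprotein E particles and protease complexes. It had 3891, 3691 and 3666 CPM untreated and 1683, 1652 and 2828 CPM with DMI. Luteolin libraries had 2153, 2209 and 3013 CPM, and with quercetin 2614, 1485 and 2614 CPM. The untreated libraries were above all induced ones, and the induced groups overlapped. Mean Lrp1 fell with DMI from 3749 ± 123 to 2054 ± 670 CPM (SD, n = 3), a fall of 0.87 on the log2 scale (SE 0.26, 1.83-fold lower, edgeR adjusted p = 0.0252). This call was lost without DMI library 1 or 2 (adjusted p = 0.111 and 0.114) and without untreated library 1, 2 or 3 (0.0725, 0.062 and 0.0831). Against DMI, luteolin gave 0.26 (interval -0.29 to 0.81, edgeR adjusted p = 0.993) and quercetin 0.12 (interval -0.43 to 0.67, edgeR adjusted p = 0.811).

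Lrp1 and Pltp, the members that fell with DMI, each held a GC box in the upstream window, seen in capitals as its reverse complement.
Lrp1, chr10:127621149-127621398: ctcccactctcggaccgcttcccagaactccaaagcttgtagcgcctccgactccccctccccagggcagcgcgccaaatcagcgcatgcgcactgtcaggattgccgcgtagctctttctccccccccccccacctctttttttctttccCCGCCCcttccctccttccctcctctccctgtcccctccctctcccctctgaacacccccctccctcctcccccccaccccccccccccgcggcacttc
Pltp, chr2:164857709-164857958: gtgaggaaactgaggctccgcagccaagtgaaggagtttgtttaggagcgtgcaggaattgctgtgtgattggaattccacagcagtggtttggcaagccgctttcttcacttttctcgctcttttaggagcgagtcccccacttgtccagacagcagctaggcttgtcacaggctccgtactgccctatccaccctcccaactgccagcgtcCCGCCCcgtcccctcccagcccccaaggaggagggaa
The GC box also stood in a window of Abca1, which rose, and of Vldlr, which did not pass.

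Vldlr (chr19:27216484-27254231, plus strand) encodes a receptor that binds apolipoprotein E on triglyceride-rich particles and brings them to lipoprotein lipase. It had 248, 252 and 246 CPM untreated and 250, 242 and 245 CPM with DMI. Its luteolin values were 205, 200 and 218 CPM, and with quercetin 183, 179 and 264 CPM. The luteolin libraries were all below the DMI ones, whereas the third quercetin library was the highest of all 12. DMI against untreated gave -0.02 (interval -0.33 to 0.29, edgeR adjusted p = 0.94), luteolin against DMI -0.24 (interval -0.55 to 0.07, 0.908) and quercetin against DMI -0.23 (interval -0.54 to 0.08, 0.372). Without the third induced libraries, both differences passed, at -0.25 with luteolin (edgeR adjusted p = 0.0481) and -0.41 with quercetin (edgeR adjusted p = 0.000793). In that fit 1566 of 15106 genes passed with luteolin and 5049 with quercetin. For each compound against DMI, it was the only 1 of the 22 alternative fits in which Vldlr passed.

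Scarb1 (chr5:125277087-125341094, minus strand) encodes the HDL receptor that takes up cholesteryl esters. It had 25.0, 24.2 and 28.4 CPM untreated and 110.5, 112.6 and 55.1 CPM with DMI. With luteolin it had 95.9, 97.5 and 55.8 CPM, and with quercetin 59.4, 48.4 and 32.0 CPM. Every induced library was above every untreated one, and in each induced group the third library was the lowest. Mean Scarb1 rose 3.59-fold with DMI, from 25.9 ± 2.25 to 92.7 ± 32.6 CPM (SD, n = 3; log2 1.84, SE 0.30, edgeR adjusted p = 0.00136). Quercetin against DMI gave -0.99 (interval -1.63 to -0.35) and did not pass (edgeR adjusted p = 0.103), while DESeq2 gave an adjusted p of 0.0226. With the replicate number as a block, edgeR gave an adjusted p of 0.017 over all 12 libraries and 0.0155 over the 6 of that pair. It did not pass in limma-voom (0.128), in edgeR on the 6 libraries without a block (0.334) or in the authors' deposited table (0.085). It passed in 6 of the 22 alternative fits. Luteolin against DMI gave -0.16 (interval -0.79 to 0.47, edgeR adjusted p = 0.998).

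The members that rose with DMI were lowest, among DMI libraries, in the third, in which the adipocyte genes were also lowest. The share of counts on mitochondrial genes was 4.72% and 4.28% in DMI libraries 1 and 2, and 2.88% in the third. It was 4.41%, 4.73% and 2.91% in luteolin libraries 1 to 3. In quercetin libraries it ran the other way, at 3.29% and 3.92% in the first and second and 4.65% in the third. The part of the adipocyte content of a library in these differences was not tested.

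Luteolin and quercetin formed the 1 pair of compounds compared, with no knowledge of whether their doses matched. No member passed, nor did any of the 14855 genes (0.0% called), while 1327 genes, 4 members among them, had an unadjusted edgeR p under 0.05, and DESeq2 called 2 genes and no member. The ranges did not overlap for 3 members, against 10.3% of all genes: Abca1 and Abcg1 were higher with luteolin (5.2% of all genes) and Apod was lower (5.07%). On the log2 scale, luteolin minus quercetin, the difference was 0.88 for Abca1 (interval 0.26 to 1.502), 0.99 for Abcg1 (interval 0.12 to 1.86) and 0.83 for Scarb1 (interval 0.20 to 1.47), each with an edgeR adjusted p of 0.541. For Vldlr it was -0.01 (interval -0.32 to 0.30, edgeR adjusted p = 0.982) and for Pltp 0.12 (interval -0.16 to 0.40, 0.743). The intervals were wider for Lrp1 (0.14, from -0.41 to 0.69), Apoe (0.45, from -0.39 to 1.29) and Apoc1 (0.59, from -0.58 to 1.75), and do not show that the compounds act alike. Without the third induced libraries, Abca1, Abcg1, Scarb1 and Apod passed in the same directions, with edgeR adjusted p from 0.000253 to 0.000867. In that fit 2081 of all 15106 genes tested passed, these 4 among them, against 0 in the main fit.

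Levels were set against each other per transcript length with the authors' FPKM. In untreated cells mean FPKM was 214 for Apod, 206 for Lrp1, 57.0 for Pltp and 24.0 for Vldlr, and below 10 for the others, down to 0.449 for Apoc1 and 0.295 for Abcg1. With DMI, Apod was at 150.0 and Lrp1 at 116 FPKM, followed by Abca1 at 51.2, Apoc1 at 45.6, Pltp at 33.5, Apoe at 29.1 and Vldlr at 24.5. Between DMI libraries the ranges of Abca1, Apoc1 and Pltp overlapped. Apod held 98.3% to 98.6% of the summed FPKM of the 3 apolipoproteins in untreated libraries. In DMI libraries 1 to 3 its share was 63.9%, 43.8% and 85.2%.

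Ratios within a library showed unequal change inside each pair of genes. The ratio of Apoc1 to Apoe FPKM was 0.0845, 0.0731 and 0.323 untreated, resting on 3, 3 and 11 counts of Apoc1, and 1.45, 1.86 and 1.15 with DMI. It was 0.441, 0.729 and 0.500 with luteolin and 0.592, 0.456 and 0.433 with quercetin, so all flavonoid libraries lay between the untreated and the DMI ranges. The ratio of Abca1 to Abcg1 FPKM was 28.1 to 32.6 untreated and 5.14 to 7.67 with DMI. It was 4.77 to 5.11 with luteolin, and 5.08, 3.17 and 11.1 with quercetin, where the third library was the highest.

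**Figure D4:**
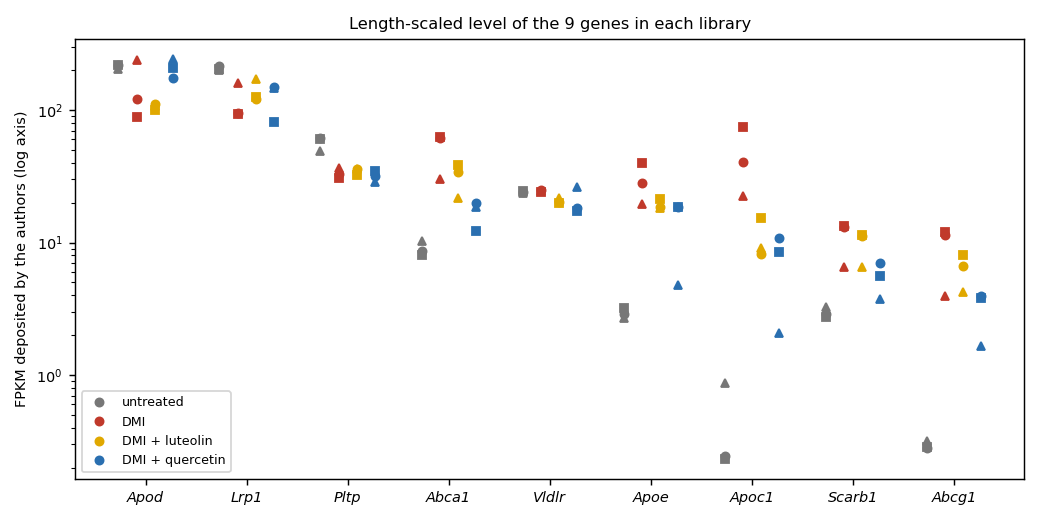
FPKM deposited by the authors (log axis) of the 9 genes in each library, 1 point per library, coloured by group, with circle, square and triangle for libraries 1, 2 and 3. Apod and Lrp1 are at the top in untreated cells, and Apoc1 climbs from below 1 to the range of Abca1 and Pltp with DMI.

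Of 53 other genes of the pathway in 5 lists, 34 had enough counts to test, and 9 rose and 4 fell with DMI, where 14.7% of all genes rose and 12.4% fell. Their median log2 fold change was 0.11. Among 10 receptors tested, 2 rose and 2 fell. Cd36, a fatty acid and lipoprotein scavenger receptor, went from 0.249, 0.656 and 3.14 CPM to 1830, 1754 and 576 CPM (log2 9.99, edgeR adjusted p = 9.36e-05). Lrp11 rose, and Lrp4 and the lysosomal Scarb2 fell. Among 5 receptor adaptors 1 rose, Pdzk1, the scaffold that stabilises Scarb1 in liver, from a mean of 0.0599 to 1.21 CPM (edgeR adjusted p = 0.00793).

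Of 12 apolipoprotein genes 3 were tested, and Apoc4 and Apol6 rose. Among 10 genes of efflux and sterol movement, Nr1h3, which encodes LXR alpha, rose 24.5-fold from 4.10, 3.64 and 3.87 CPM to 110, 139 and 35.8 CPM (edgeR adjusted p = 0.00034). Its partner Rxra rose too, while Soat1 and Nceh1, which make and cleave cholesteryl esters, fell. Of 6 genes of lipoprotein remodelling 2 rose, the lipase gene Lpl and its inhibitor Angptl4. No gene of the 5 lists passed in the comparisons of luteolin with DMI, quercetin with DMI, or luteolin with quercetin. Of all genes tested, 0.0202%, 1.01% and 0.0% passed there, in that order. The 19 untested genes included Apoa4 and Apoc2, which had no count in any library.

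**Figure D5:**
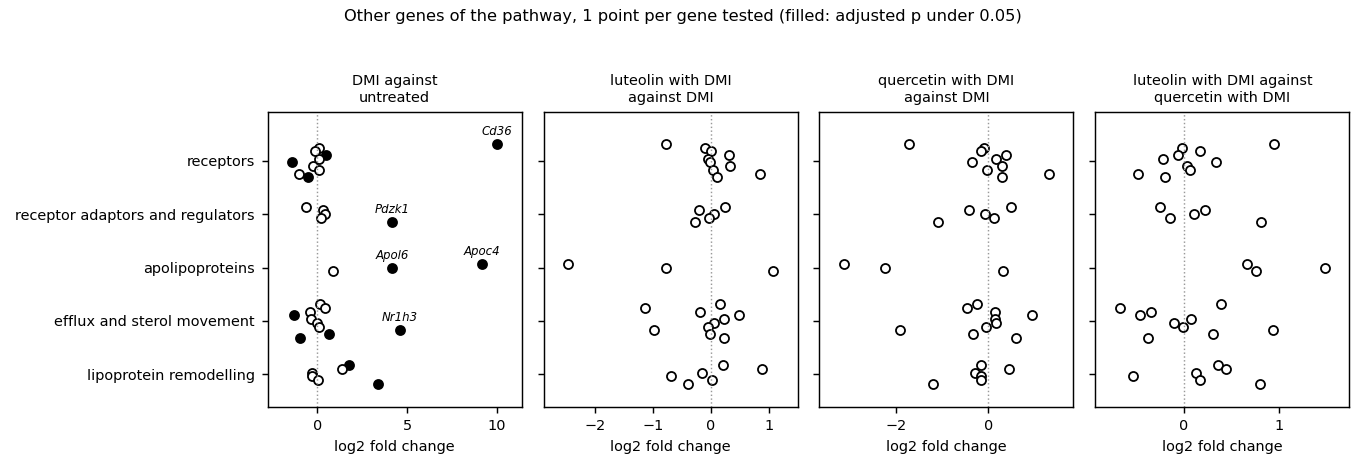
Log2 fold change (horizontal axis) of each tested gene of the 5 lists in the 4 comparisons, 1 point per gene, filled where the adjusted p was under 0.05. Filled points occur in the DMI panel only, where Cd36 lies at 9.99 and Apoc4 at the far right as well.

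The nearest profiles over the 12 libraries were sought among 10197 protein-coding genes by the root-mean-square difference of centred log2 CPM. For Apoe the nearest were Dbi, the acyl-CoA binding protein (0.27), and Cycs, cytochrome c (0.30). For Apoc1 they were Cox8b, a cytochrome oxidase subunit (0.33), and Aldh3b2 (0.41). Abca1 was nearest to Hk2, hexokinase 2 (0.255), and Hoxa4 (0.26), and Abcg1 to Tmem179 (0.20) and Adam12 (0.25). Lrp1 was nearest to Flnc, filamin C (0.08), and Slc8a1 (0.10), and Scarb1 to Arrb1 (0.11) and Mical3 (0.14). Vldlr was nearest to Rgl1 (0.045) and Pde4dip (0.08), Apod to Gnb4 (0.19) and Parp8 (0.21), and Pltp to Sox12 and Zfp651 (both 0.14). For scale, the members' own root-mean-square deviation from their means ran from 0.185 for Vldlr to 2.35 for Apoc1.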

How the data were processed

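Per the labels' protocols, total RNA was extracted with Trizol and libraries were made with a NEBNext Ultra RNA kit. The submitters' processing notes name CASAVA 1.8.2, featureCounts 1.5.0-p3 and the build mm9, although 98.1% of gene positions in the deposited table are the same as in GENCODE M21 (GRCm38). The positions printed are the table's. The authors deposited raw counts per gene, FPKM per gene, and a table of their own log2 fold changes and adjusted p-values, made with a test that the sources used here do not give. The FPKM were used only to set genes beside each other, and the authors' comparisons only where named. Groups were read from the sample titles. No per-sample column was left unused, and 27 symbols that a spreadsheet had turned into dates were restored. Genes with no count anywhere numbered 25496.

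From the counts, filterByExpr kept 14855 genes, TMM gave library factors, and edgeR 4.0.16 (R 4.3.3) fitted 1 term per group over all 12 libraries with its quasi-likelihood test and Benjamini-Hochberg adjustment over all genes tested. CPM is counts over TMM-adjusted totals. Intervals are 95% from the fitted change and its standard error, which is the change over the root of the F statistic. The number of libraries, 3 per group, and counting error at low levels (Apoc1 and Apoc4 in untreated cells) limit precision. The procedure was tested on simulated data. Alternatives were other scalings and filters, DESeq2 1.42.0, limma-voom (limma 3.58.1), fits on the 6 libraries of a pair, replicate blocks and leaving out libraries.

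Whether same-numbered libraries pair was checked by the correlation of their deviations from the group means. It was 0.261, 0.337 and 0.59 for luteolin and DMI, -0.014 to 0.022 for DMI and untreated, 0.068 to 0.335 for quercetin and DMI and 0.079 to 0.207 for luteolin and quercetin. Same-numbered luteolin and DMI libraries thus deviated together, as did quercetin and DMI libraries 2 and 3 (0.279 and 0.335). The labels do not say what a number marks. The main fit has no block. Blocked values stand beside the luteolin results that they change, and beside the quercetin results of Apoe, Apoc1, Abca1, Abcg1 and Scarb1.

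The 9 members, the gene lists and the markers were chosen with earlier results of these data known. Named are all members, up to 4 list genes per comparison with the largest change among those that passed, list genes at 0 throughout, and for each member the 2 genes with the nearest profile at a mean of 5 CPM or more. Other list genes that passed are named without values. The neighbours of Apoe were added after values were seen, as were the FPKM ratios and the motifs.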

Additional observations from a re-analysis of the deposited data

How the results depend on the processing

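Over the alternatives, 691 of the members' results kept direction and side of the threshold, 42 newly passed, 29 lost their call and 30 changed direction. The values that changed direction follow, with the range over single libraries left out. For Vldlr with DMI against untreated the log2 value became 0.026 with RLE factors, 0.008 with library totals, 0.037 with no filter, 0.036 with a 1 CPM filter, 0.026 in DESeq2, 0.043 in the 6 libraries of the pair and also with the replicate block there, 0.023 without the third induced libraries and -0.03 to 0.034 with single libraries left out (above 0 without untreated 3 or quercetin 3). For luteolin against quercetin Vldlr became 0.027 with library totals, 0.005 with the 1 CPM filter, 0.012 in limma-voom, 0.001 with the replicate block over 12 libraries and 0.021 with that over 6, 0.158 without the third induced libraries and -0.109 to 0.194 with single libraries left out (above 0 without luteolin 2 or quercetin 3). For luteolin against DMI, Apod became 0.027 without the third induced libraries and ranged from -0.762 to 0.005 (above 0 without DMI 3), and Scarb1 ranged from -0.423 to 0.062 (above 0 without DMI 2 or luteolin 3). For quercetin against DMI, Lrp1 ranged from -0.011 to 0.426 (below 0 without DMI 1, DMI 2 or quercetin 1), and Pltp was 0.098 without the third induced libraries and ranged from -0.15 to 0.022 (above 0 without DMI 3 or quercetin 3). For luteolin against quercetin, Lrp1 ranged from -0.088 to 0.262 (below 0 without luteolin 3 or quercetin 2).

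For luteolin against DMI, members called went from 0 to 2 with no filter, 3 with the replicate block over 6 libraries and 5 without the third induced libraries, and all genes from 3 to 363 with no filter, 48 in DESeq2, 0 in limma-voom (807 at an unadjusted p under 0.05) and in the 6 libraries (881), 25 with the replicate block over 12 and 929 with that over 6, and 1566 without the third libraries. For quercetin against DMI, members went from 2 to 1 with library totals or a 1 CPM filter, 5 with no filter or with either replicate block (Apoe at adjusted p 0.0368 and 0.0362 in the 2 blocked fits), 4 in DESeq2, 0 in limma-voom and in the 6 libraries, and 7 without the third libraries. All genes there went from 150 to 59 with library totals, 1737 with no filter, 55 with the 1 CPM filter, 1002 in DESeq2, 1 in limma-voom, 0 in the 6 libraries, 1395 with the replicate block over 12 and 706 with that over 6, and 5049 without the third libraries. For luteolin against quercetin, members went from 0 to 4 with no filter and without the third libraries, and all genes from 0 to 450 and 2081 under those settings, 2 in DESeq2, and 14 and 36 with the replicate block over 12 and 6. For DMI against untreated, 7970 genes passed without the third libraries. Leaving out 1 library at a time gave 1865 to 5569 genes and 6 to 8 members for DMI, 0 to 259 and 0 to 1 for luteolin, 0 to 2646 and 0 to 6 for quercetin, and 0 to 10 and 0 for luteolin against quercetin. The cause of these shifts was not tested. In the fits that leave 1 group with 2 libraries, that group is assumed to vary like the others.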
